A study of Mus musculus with 5 samples.

Results

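Thrombospondins and related secreted proteins that restrain blood vessel growth were followed in 5 clones of mouse cardiac progenitor cells. The set held 6 genes: Thbs1, Thbs2 and Thbs3 for thrombospondins, Serpinf1, Adamts1 and Vash1. Its members were all probe sets annotated to these symbols, a probe set being the group of array probes that reports 1 transcript. In all 10 of the 45101 probe sets on the array named a member, and 5 of the 6 genes had a probe set of their own, among 18193 genes that did. No probe set was assigned to Vash1, which was therefore not analysed here. Of the other 5 genes, 4 could be compared between clones, and Serpinf1 stayed below the level needed in every clone.

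Total RNA had been taken from clones 1D, 11B, 20B, 30 and 42, with 1 Affymetrix expression array for each. All clones derived from the left ventricle of adult mice of 5 to 6 months, whose strain the labels spell C67BL/6, and no treatment is named. Cells were captured magnetically with an antibody to Sca-1, a surface marker of progenitors, grown as cardiospheres and attached cultures, and then cloned with rings and by dilution, and the labels call them c-kit+ cardiac progenitor cells. Each group was thus a single expanded clone on a single array, so there was no replicate, no difference could be tested, and a clone could not be told apart from its culture or its array. The title of the series names SDF-1, a chemokine, and the capacity of the cells to form vessels, and the question asked here was how far the clones differed in secreted proteins that oppose vessel growth.

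Thrombospondins are large glycoproteins of the extracellular matrix that bind cells, growth factors and proteases. Thbs1 and Thbs2 form trimers with properdin-like repeats, through which they bind CD36 on endothelial cells and stop their migration, and Thbs1 also releases TGF-beta from its latent complex. Thbs3 belongs to the pentameric thrombospondins, which lack those repeats. Adamts1 encodes a secreted metalloproteinase that carries thrombospondin repeats, cleaves the proteoglycans versican and aggrecan and binds VEGF. Serpinf1 encodes pigment epithelium-derived factor (PEDF), a serpin without protease inhibition that acts on endothelial cells, and Vash1 encodes vasohibin, a feedback inhibitor made by endothelium that works with the partner Svbp.

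The deposited values were ratios, in which each probe set had been divided by its median over the clones or, when that median was low, by a floor. They showed differences between clones but no expression level, so levels of different genes could not be compared. A probe set was called measured when it had a median of exactly 1, or a clone above 1, together with a range from the lowest to the highest clone of over 0.05 log2 units. A gene's value was the mean log2 ratio of its measured probe sets, and 9435 genes had one. The only error available came from 6681 pairs of probe sets for the same gene: the standard deviation of a single probe set was 0.27 on the log2 scale, and that of a difference between 2 clones on a single probe set was 0.43. This error is 1 standard deviation, which differences from error alone can exceed, so it is no limit of detection. It leaves out the variation of cultures and of RNA extraction. For the 18 hybridization controls the standard deviation was 0.07. As a sign of RNA integrity, the deposited ratio at the 5' end was divided by that at the 3' end, which compares clones only. For Actb it was 0.597 in clone 11B and 0.743 in clone 30, against 1 to 1.08 in the other clones. For Gapdh it was 0.924 in clone 11B and 1 in clone 30, against 1.03 to 1.16.

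The measured members differed by up to 1.85-fold between the clones. Of the 4, 0 had a range of 1 log2 unit (2-fold) or more, beside 13.0% of all measured genes, and with 4 genes a count of 0 is near that share. A probe set shared with another gene, described below for Thbs1, spanned 2.15-fold. In bulk RNA, fewer cells making a transcript and less of it in each cell cannot be told apart. A range of at least 1.5-fold was reached by 2 members, Adamts1 and Thbs3, against 34.4% of measured genes. In 0 of the 4 was any clone at least 2-fold above the other 4 clones, a call made for 1.59% of measured genes, or 2-fold below them (1.27%). These counts at 2-fold follow from the absence of a 2-fold range. At 1.5-fold these counts were also 0, against 8.48% above and 5.21% below. The median range of all measured genes was 0.41 log2 units, and those of the members were 0.39 for Thbs2, 0.43 for Thbs1, 0.71 for Thbs3 and 0.89 for Adamts1. Clone 1D had the highest value for 3 of the 4 (Thbs1, Thbs3 and Adamts1), while it was the highest clone for 19.2% of measured genes. With 4 genes such a count carries little weight. The lead over the next clone was 0.04 log2 units for Thbs1, 0.26 for Adamts1 and 0.47 for Thbs3, and only that for Thbs3 exceeded 0.43.

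**Figure D1:**
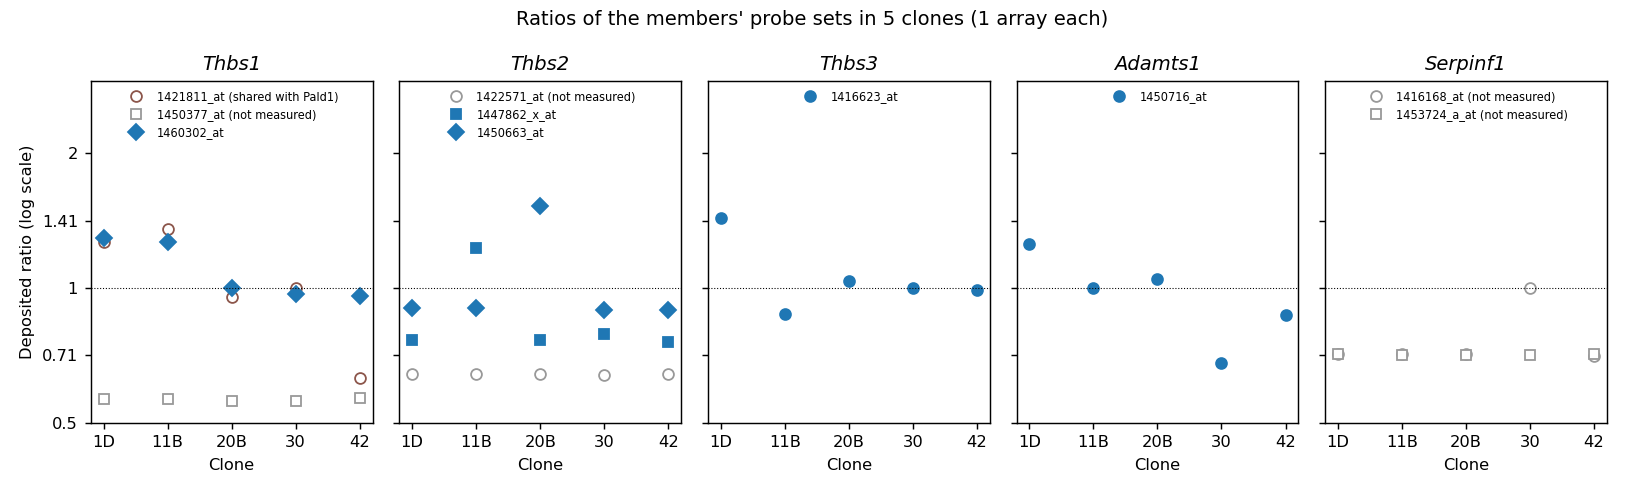
Deposited ratios of the 10 probe sets that name a member (y axis, log scale) in each clone (x axis), 1 array per clone, so no error bars. Filled symbols are measured probe sets, open grey ones were not measured, and the open brown ones belong to a probe set shared with Pald1. The dotted line marks a ratio of 1. The highest Thbs3 and Adamts1 values lie in clone 1D, and the lowest Adamts1 value in clone 30.

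**Figure D2:**
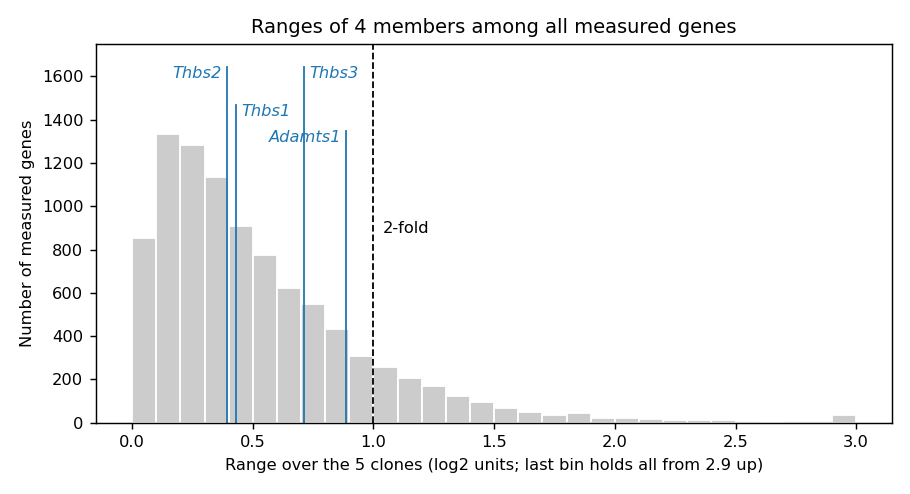
Histogram of the range over the 5 clones (x axis, log2 units) for 9435 measured genes (y axis, number of genes). Blue lines mark the 4 measured members, all left of the dashed line at 2-fold; Thbs2 and Thbs1 lie close to the median of 0.41.

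Among the thrombospondins, Thbs1 was measured by probe set 1460302_at. Its ratio was 1.295 in clone 1D, 1.264 in clone 11B, 1 in clone 20B, 0.97 in clone 30 and 0.96 in clone 42. Clones 1D and 11B were thus the higher pair and lay within 0.04 log2 units of each other, and the other 3 clones lay within 0.06. Clone 1D exceeded clone 42 by 1.35-fold, a difference of 0.43 log2 units that was no larger than the standard deviation of 0.43 for such a difference. None of the 10 pairs of clones differed in Thbs1 by more than that error. The range of Thbs1 was wider than that of 52.4% of measured genes, so it stood near the middle of the table.

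A further probe set, 1421811_at, is annotated to both Thbs1 and Pald1, the gene of paladin, and cannot be assigned to either. Its ratio was 1.355 in clone 11B, 1.266 in clone 1D, 1 in clone 30, 0.954 in clone 20B and 0.629 in clone 42. It shared with 1460302_at the higher values in clones 1D and 11B, and differed from it in clone 42, which lay far below the rest. The fold between its highest and lowest clone was 2.15, on the shared probe set alone. Averaged into Thbs1, a setting chosen after seeing the values, it widened the range of Thbs1 to 0.75 log2 units and made clone 11B the highest. The remaining Thbs1 probe set, 1450377_at, was flat below the floor at 0.558 to 0.567.

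Thbs2 was read by probe sets that disagreed on which clone was high. On 1450663_at the ratio was 1.521 in clone 20B, against 0.904 in clone 1D, 0.903 in clone 11B, 0.895 in clone 42 and 0.894 in clone 30. On 1447862_x_at it was 1.23 in clone 11B, against 0.788 in clone 30, 0.767 in clone 20B, 0.764 in clone 1D and 0.757 in clone 42. Each probe set thus showed a single raised clone over a tight group of the other 4, by 1.68-fold over the next clone on the first and 1.56-fold on the second. The ratios of clones 1D, 11B and 30 on 1450663_at recurred unchanged on 12 other probe sets, so they are a shared low level and their closeness does not measure Thbs2. The medians of both probe sets lay below 1, at 0.903 and 0.767, and Thbs2 was measured only through its raised clone.

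Averaged over both, Thbs2 was 0.11 in clone 20B and 0.08 in clone 11B on the log2 scale, against -0.25 in clone 30, -0.27 in clone 1D and -0.28 in clone 42. Since Thbs2 was measured only through a raised clone, a high value somewhere was required, and nothing is read from these means. On both probe sets in the same direction, 0 of the 10 pairs differed by more than 0.43. The range depended on the probe set: it was 0.77 log2 units when the probe set of highest mean ratio was used, and also without probe sets marked for cross-hybridization such as 1447862_x_at. The remaining probe set, 1422571_at, lay at 0.64 to 0.644 in all clones.

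Thbs3 had its highest value in clone 1D. On its only probe set, 1416623_at, the ratio was 1.435 in clone 1D, 1.037 in clone 20B, 1 in clone 30, 0.992 in clone 42 and 0.876 in clone 11B. Clone 1D stood alone at the top, 1.38-fold above clone 20B, the next clone. It exceeded each of the other 4 by more than 1 standard deviation of a difference, by 0.47 log2 units over clone 20B and by 0.71 over clone 11B. The widest of these was 1.64 standard deviations. Among clones 11B, 20B, 30 and 42 the differences were at most 0.24 log2 units, below that error. The difference between clones 1D and 11B was 1.64-fold, and 6.54% of measured genes were at least 1.5-fold higher in clone 1D than in clone 11B. Clone 11B, the lowest for Thbs3, had the lowest integrity ratio for Actb (0.597) and for Gapdh (0.924), and the part of RNA integrity in this value was not tested. Without clone 1D the range of Thbs3 was 0.24 log2 units.

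Adamts1 had the widest range of the 4 members. On its only probe set, 1450716_at, the ratio was 1.255 in clone 1D, 1.049 in clone 20B, 1 in clone 11B, 0.869 in clone 42 and 0.679 in clone 30. Clone 30 was the lowest, by a gap of 0.36 log2 units, which was the largest between neighbours in the order. Clone 1D exceeded clone 30 by 1.85-fold (0.89 log2 units) and clone 42 by 1.44-fold (0.53 log2 units). Clones 20B and 11B exceeded clone 30 by 0.63 and 0.56 log2 units. These 4 of the 10 pairs, 3 of them with clone 30, differed by more than 0.43 log2 units, and neighbours in the order did not. The widest difference was 2.05 standard deviations. At least 1.5-fold higher values in clone 1D than in clone 30 were found for 8.70% of measured genes, and in clone 20B than in clone 30 for 7.30% of them. The range was wider than that of 83% of measured genes, and without clone 30 it was 0.53 log2 units. In clone 30 the integrity ratio was 0.743 for Actb and 1 for Gapdh, and its part in the low Adamts1 value was not tested.

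The sequences before the start sites of Adamts1 and Thbs3 are shown because these members had the widest ranges and were both highest in clone 1D. They are the 250 bases before the RefSeq start in assembly GRCm38.p6, at chr16:85803114-85803363 on the minus strand for Adamts1 and chr3:89214930-89215179 on the plus strand for Thbs3. Capitals mark matches, on either strand, to the TATA box motif TATAAA, to the GC box motif GGGCGG and to the pentamer CCAAT, and no matches overlap.
Adamts1: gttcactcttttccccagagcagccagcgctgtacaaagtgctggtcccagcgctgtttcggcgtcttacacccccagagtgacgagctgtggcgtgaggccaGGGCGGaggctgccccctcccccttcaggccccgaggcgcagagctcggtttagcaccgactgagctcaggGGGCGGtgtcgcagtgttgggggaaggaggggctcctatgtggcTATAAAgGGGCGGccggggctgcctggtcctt
Thbs3: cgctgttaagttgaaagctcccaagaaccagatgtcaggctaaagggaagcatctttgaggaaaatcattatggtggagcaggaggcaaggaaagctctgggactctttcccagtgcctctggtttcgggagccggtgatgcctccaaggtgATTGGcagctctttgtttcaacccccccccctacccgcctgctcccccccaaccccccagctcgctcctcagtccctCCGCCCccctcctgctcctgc
Adamts1 had a TATAAA from base 32 to base 27 before the start and 3 matches to GGGCGG. Thbs3 had no TATAAA in this window, with 1 GGGCGG and 1 CCAAT, both on the opposite strand. Of 32851 promoter windows of the same length, 12.4% held a TATAAA, 32.7% a GGGCGG and 33.8% a CCAAT. These matches describe the letters only, and the arrays hold no measurement of binding.

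Serpinf1 could not be followed. On probe set 1416168_at its ratio was 0.999 in clone 30, against 0.714 in clone 20B, 0.712 in clone 1D, 0.711 in clone 11B and 0.705 in clone 42. Clone 30 was thus 1.40-fold above the next clone but just short of the ratio of 1 that a probe set had to exceed. The ratios of clones 1D, 11B and 20B recurred on 4 other probe sets, which again marks a shared low level. The other probe set, 1453724_a_at, lay at 0.707 to 0.713 in every clone and did not show the higher value in clone 30. With every probe set of the gene averaged, the range of Serpinf1 was 0.25 log2 units. Of the members' probe sets that were measured with a median below 1, the nearest to that limit was 1447862_x_at of Thbs2, at 1.23. A value at the floor is not evidence that a transcript was absent.

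Thbs1, Thbs3 and Adamts1 can be set beside one another by clone. Thbs2 is left out here, since nothing is read from its means. Clone 1D combined the highest Thbs3 (0.52), Thbs1 (0.37) and Adamts1 (0.33), all as mean log2 ratios. Clone 11B had Thbs1 at 0.34, with the lowest Thbs3 (-0.19). In clone 20B these genes lay between 0.00 and 0.07. Clone 30 was lowest in Adamts1 (-0.56). Clone 42 lay from -0.20 for Adamts1 to -0.01 for Thbs3. The differences past 1 standard deviation (0.43 log2 units) were those named above for Thbs3 and Adamts1.

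Other genes of these pathways were taken from 6 lists of 104 genes, of which 63 were measured and 21 (33.3%) had a range of at least 2-fold, against 13.0% of all measured genes. The lists are small, and each count below stands beside that same 13.0%. They were also chosen with earlier results of these data known, so a share above 13.0% is not read as a result about these pathways. In the list of further thrombospondins and of thrombospondin receptors, 6 of 12 measured genes reached 2-fold, and the median range was 0.90 log2 units against 0.41 for all measured genes. Comp, the pentameric thrombospondin of cartilage, had the same order of clones as Thbs3: its ratio was 1.179 in clone 1D, 1.032 in clone 20B, 1 in clone 30, 0.994 in clone 42 and 0.752 in clone 11B. Comp was singled out after its values were seen, and clones 20B, 30 and 42 lay close together for both genes, so the shared order describes these arrays only. Thbs4, also pentameric, was not measured, at 0.861 in clone 30 and 0.653 to 0.656 elsewhere.

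Several receptors ranged over more than 2-fold. Cd36, the scavenger receptor that Thbs1 and Thbs2 bind, had a ratio of 2.556 in clone 20B and 1.85 in clone 1D, against 1 in clone 11B, 0.991 in clone 30 and 0.739 in clone 42, on 1 of its 3 probe sets. Clones 20B and 1D were the high ones, and the other 2 probe sets were flat below the floor. Cd47, the receptor of the thrombospondin carboxy terminus, was also highest in clone 20B, at 2.192, 1.535 and 1.236 on its 3 measured probe sets, with a mean log2 ratio of 0.69. Itgb1, an integrin chain shared by several thrombospondin-binding receptors, was high in clones 42 (0.92) and 1D (0.72) and low in clone 30 (-0.78). These means rest on 3 of its 6 probe sets. The others were flat, 1426919_at at 0.99 to 1.021, 1426920_x_at at 0.998 to 1.003 and 1438119_at at 0.414 to 0.418. Itga6 was lowest in clone 30 (-1.38), with a ratio of 0.149 there on 1 probe set and 0.99 on the other. Itga3 was highest in clone 42 (0.74) as a mean, but on 1455158_at clone 11B was highest (1.187) and clone 42 lay at 1. The syndecans, heparan sulfate proteoglycans of the surface, peaked in clone 30 for Sdc1 (0.68) and in clone 42 for Sdc4 (0.97).

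Genes around PEDF, Adamts1 and TGF-beta were followed in the same way. Pnpla2, the lipase described as a PEDF receptor, was the single gene of 4 measured in the list of PEDF and vasohibin partners to reach 2-fold, with 1.804 in clone 20B and 0.446 in clone 30. Svbp ranged over 0.27 log2 units, and Vash2, the other vasohibin, was not measured (0.642 to 0.648). In the list of ADAMTS proteases and their substrates, 4 of 11 measured genes reached 2-fold. Adamts6 was highest in clone 42 (0.61) and lowest in clone 20B (-0.91), and Adamts7 was lowest in clone 30 (-0.84), as mean log2 ratios. In each the ratios of 3 clones recurred unchanged on other probe sets, 1067 for Adamts6 and 153 for Adamts7, which leaves the size of these differences uncertain. Vcan, the gene of versican, was highest in clone 1D on each of its 3 measured probe sets (2.328, 2.004 and 1.405), the clone in which Adamts1 was also highest. Acan, the gene of aggrecan, was highest in clone 30 (1.809), where Adamts1 was lowest. On 1 of its 2 probe sets Tgfb1 had a ratio of 1.705 in clone 1D, 1.062 in clone 20B, 1 in clone 11B, 0.578 in clone 42 and 0.571 in clone 30. Clone 1D was thus highest for it, as for Thbs1. However, clone 1D led the next clone by only 0.04 log2 units for Thbs1 and 0.26 for Adamts1. Clone 30 was lowest for Adamts1 by 0.36. All 3 gaps were below 0.43, and no link of Vcan, Acan or Tgfb1 to the members was tested. In the list of latent TGF-beta genes and targets, 2 of 9 measured genes reached 2-fold, Tgfb1 and Tgfb3. Tgfb3 was highest in clone 30 (2.884).

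Among other secreted inhibitors of angiogenesis, 3 of 15 measured genes reached 2-fold, and the median range was 0.25 log2 units. Timp2, a metalloproteinase inhibitor, and Sema3b, a semaphorin, were highest in clone 30, at 1.03 and 1.29 on the log2 scale. The Sema3b value rests on 1 of its 3 probe sets. Of the others, 1431795_a_at was flat at 0.998 to 1.004. On 1416644_a_at clone 30 (0.746) lay below clone 20B (0.757). Sparc, a matricellular protein, was lowest in clone 42 (-1.07), with ratios there of 0.142 and 0.688 on 2 probe sets and 1.107 on the third, where clone 42 was highest. For Sema3b the ratios of clones 1D, 11B and 20B on the measured probe set, 0.998 to 1.003, recurred unchanged on 1371 others. Clone 42 lay below them at 0.769. The recurrence leaves the size of the Sema3b differences uncertain. Of the angiogenic factors, 5 of 13 measured genes reached 2-fold, led by Adm, the vasodilator adrenomedullin, at 1.40 in clone 20B and 1.18 in clone 11B against -1.12 in clones 30 and 42. Angptl4, an angiopoietin-like protein, was highest in clone 30 (0.74) and lowest in clone 42 (-1.13). Vegfb was lowest in clone 30 (-1.01), and Ang, the gene of angiogenin, was highest in clone 20B (0.63). Vegfa, the main endothelial growth factor, ranged over 0.52 log2 units, with 0.33 in clone 20B and -0.19 in clone 1D. On 1 of its 2 probe sets the ratios of clones 1D, 11B and 42 recurred on 1212 others. Cxcl12, which encodes SDF-1, was 1.20 in clone 11B and -0.87 in clone 30, with 0.307 there on 1 measured probe set and 0.974 on the other. On the first the ratios of clones 1D, 20B and 42 recurred on 376 other probe sets. On the second those of clones 1D, 20B and 30 recurred on 5, which leaves the size of these differences uncertain. In clones 11B and 30 Thbs1 was 0.34 and -0.04, and Adamts1 0.00 and -0.56.

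**Figure D3:**
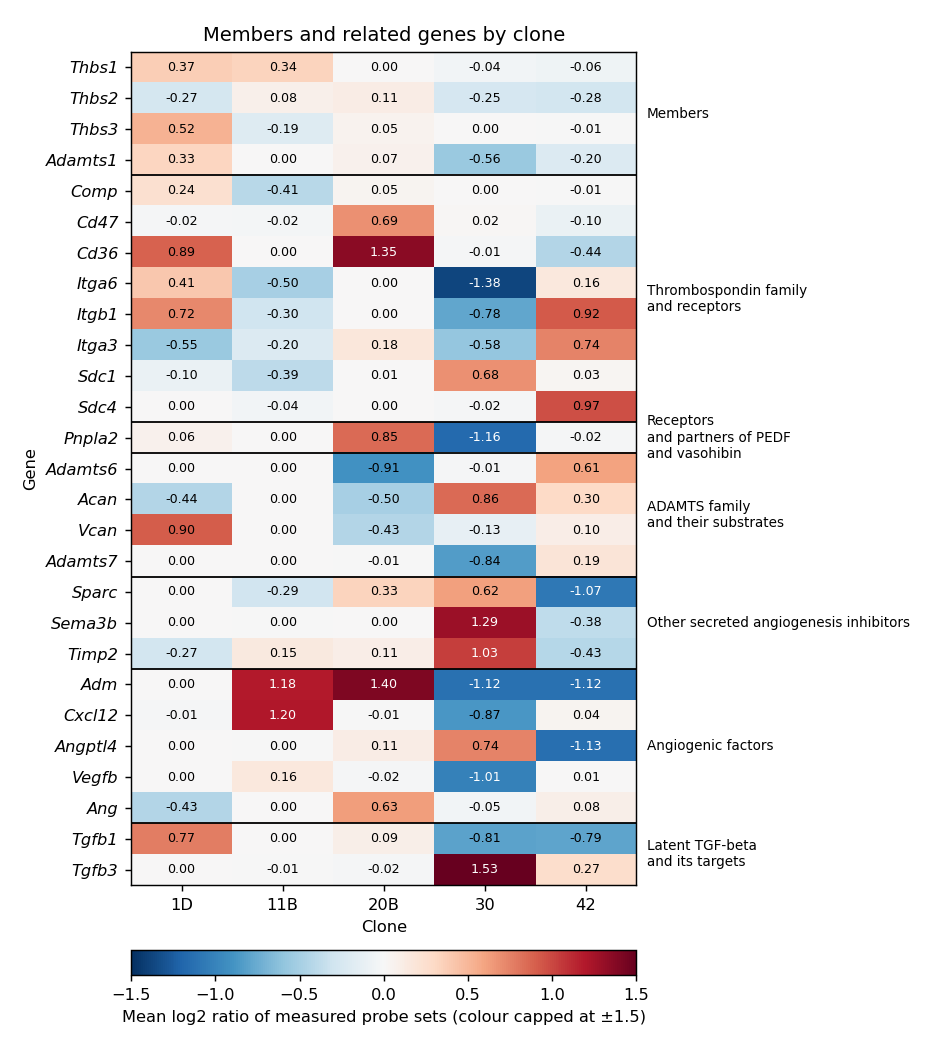
Mean log2 ratio of the measured probe sets (colour and printed value) for the 4 measured members, for Comp and Cd47, and for each gene of the 6 related lists with a range of at least 2-fold (rows), by clone (columns, 1 array each). Members stay between -0.56 and 0.52, while Cd36, Adm and Cxcl12 exceed 1 in at least 1 clone.

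Markers of other cell types were examined because endothelial cells and pericytes also make thrombospondins. None of the 7 endothelial markers (Pecam1, Cdh5, Kdr, Tek, Tie1, Vwf and Emcn) was measured, and their 8 probe sets lay between 0.449 and 0.833 in all clones. None of the 4 pericyte markers was measured, and their 9 probe sets lay between 0.528 and 1.005. A value above 1 passes the level rule, so the probe set with that highest value was left out for its narrow range. Smooth muscle genes were measured for 4 of 5. On the log2 scale clone 1D was lowest for all 4, from -0.89 for Smtn to -0.06 for Acta2. Tagln (1.83), Acta2 (0.20) and Myh11 were highest in clone 30, and Smtn in clone 11B (0.73). Myh11 ranged over 0.07. Of the fibroblast genes, 3 of 6 were measured. Col3a1 (-6.33) and Col1a1 (-2.13) were lowest in clone 42, whereas Pdgfra was highest there (0.70) and lowest in clone 1D (-0.60). For Pdgfra clone 20B lay close to clone 1D (-0.57), and below it on 1421917_at (0.304 against 0.358). On 1438946_at clone 30 was highest for Pdgfra (1.308) and clone 42 lay at 0.984. The part of such differences in the values of the members was not tested. Of the markers the labels name, Kit varied by 0.26 log2 units, Pou5f1 stayed at 0.572 to 0.58, and Ly6a, the gene of Sca-1, had no probe set of its own. The Kit ratios of clones 1D, 11B and 30 recurred on 1067 other probe sets, which leaves that size uncertain.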

How the data were processed

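The deposited table holds, for 45101 probe sets and 5 arrays, a ratio that the authors made, with RMA and GCRMA named in the submitters' processing notes without version or role. No label or header gives the unit. Over the arrays, 18926 probe sets had a median of exactly 1, 26175 of less and 0 of more, from which the division by the median or by a floor was inferred. Arrays have no read depth, and precision is limited by how few there are. Gene names came from the supplied array annotation, with symbols updated by gene ID through a RefSeq table (GRCm38.p6): 34958 had 1 symbol, of which 34741 matched, 932 had several and 9211 none. Probe sets with several symbols and 64 control probe sets stayed out of gene values. Ratios were taken to log2 without a pseudocount, measured probe sets were averaged per gene, and pairs of clones, ranges and single clones were compared at 2-fold. With 1 array per clone no test or p-value was computed. Alternatives changed the averaging, the scaling, the floor, the filters, the fold and the clones included. The calls were also run on simulated data, which had no floor and a smaller error than the one estimated here. That run gives no error rate for these arrays. The rule for naming genes took every member, up to 4 measured genes of largest range per list and any at 2-fold, Vegfa, Cxcl12, Kit, Ly6a and Pou5f1; of those below 2-fold only some are given, and genes outside the rule, Comp and Cd47 among them, were named after their values were seen. A rule naming genes with the most similar pattern applied to members of at least 2-fold range, and there were 0. Members and lists were chosen with earlier results of these data known. Python 3.11.15, pandas 2.3.3 and numpy 2.4.6 were used.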

Additional observations from a re-analysis of the deposited data

How the results depend on the processing

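In each of the 10 other ways of averaging, scaling or filtering, 0 members reached 2-fold, 0 set a clone apart and 0 pairs of clones differed 2-fold in a member. The same held with each clone left out and at 4-fold, but there it was fixed in advance. Leaving out a clone can only narrow a range, and 4-fold is the stricter limit. Wherever no member reached a 2-fold range, the counts of clones set apart and of pairs follow from that and add nothing to it. At 1.5-fold 2 members reached the range. Clone 1D was highest for Thbs3 and Adamts1 in 10 of 10 of these ways. Each of these genes rests on 1 probe set with a median of exactly 1, so only rescaling could change its values. For Thbs1 clone 1D was highest in 9 of 10. The exception was the average with the shared probe set, a setting chosen after seeing the data. For Thbs2 no order is given, since clone 20B led clone 11B by 0.04 log2 units and its probe sets name different clones. The median range of the members, 0.57 log2 units, was 0.26 with every probe set averaged, where 11 rather than 21 related genes reached 2-fold; that average takes in probe sets held at the floor and narrowed Thbs1 to 0.22. With a clone left out the median range was 0.39 to 0.57, and the related genes at 2-fold numbered 12 to 19, the lowest without clone 30. The share of all genes compared that reached 2-fold was lower too, at 3.74% with every probe set averaged and 8.18% without clone 30, against 13.0%. Without clone 1D the range of Thbs3 was 0.24, and without clone 30 that of Adamts1 was 0.53. Only probe sets with a median of exactly 1 left Thbs2 unmeasured. Scaling moved the median of measured probe sets by at most 0.0072 log2 units. No paired analysis was possible because each clone had 1 array and the labels give no replicate numbers. The error, 0.43 log2 units, is 1 standard deviation, and differences near it or somewhat above it cannot be resolved with 1 array per clone.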
